A study of Homo sapiens with 6 samples.

Results

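The genes of human chromosome 18 were described in a castration-resistant line of prostate cancer cells, C4-2B, and its subclone RC4-2B, selected for resistance to the taxane cabazitaxel (CBZ). Members were all rows of the read-count table annotated as protein-coding and placed on chromosome 18, 269 of 19951 protein-coding genes. Of these, 66 start on the short arm and 203 on the long arm, with the arms divided at 18 Mb, inside the stretch without protein-coding genes between starts at 14728272 and 20946906. Each cell line was sequenced as bulk RNA in 3 biological replicates. RC4-2B was obtained by repeated 72 h exposures to CBZ that rose from 0.1 to 20 nM over 4 months, and C4-2B is the unselected parent. Both lines were grown in RPMI 1640 with 10% fetal bovine serum, and for RNA they were plated for 72 h in a medium for which the methods also name charcoal-stripped serum. No drug was named for that culture. RC4-2B is a single selected line, so the selection and anything else that set this subclone apart from its parent cannot be told apart.

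Chromosome 18 is among the chromosomes of lower gene density. It carries the desmosomal cadherin cluster, which encodes the desmocollins and desmogleins that hold epithelial cells together, the SERPINB protease inhibitor cluster, the signal transducers SMAD2, SMAD4 and SMAD7, and the apoptosis regulators BCL2 and PMAIP1. SMAD4 and DCC were first studied as candidate tumour suppressors of its long arm.

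The promoters of 5 members are shown first, as examples of genes that departed from the rest of the chromosome. SYT4, CBLN2 and PMAIP1 fell in RC4-2B, while DSC3 and TUBB6 rose. They are not the 5 largest changes: RNF152, PSTPIP2 and COLEC12 fell further than PMAIP1, and MAPRE2 and SERPINB5 rose more than TUBB6. Sequences are RefSeq windows on GRCh38.p14 from 250 bases before to 50 bases after the annotated start, written 5′ to 3′ in the gene's direction, with each CG dinucleotide in capitals. The windows are chr18:43277441-43277740 on the minus strand, chr18:72544293-72544592 on the minus strand, chr18:59899746-59900045 on the plus strand, chr18:31042693-31042992 on the minus strand and chr18:12307419-12307718 on the plus strand. The RefSeq start of CBLN2 lies far inside the gene as the count table bounds it, and those of SYT4, DSC3 and PMAIP1 lie slightly inside theirs. Whether the CBLN2 window is the promoter of the transcripts counted was not tested.
SYT4: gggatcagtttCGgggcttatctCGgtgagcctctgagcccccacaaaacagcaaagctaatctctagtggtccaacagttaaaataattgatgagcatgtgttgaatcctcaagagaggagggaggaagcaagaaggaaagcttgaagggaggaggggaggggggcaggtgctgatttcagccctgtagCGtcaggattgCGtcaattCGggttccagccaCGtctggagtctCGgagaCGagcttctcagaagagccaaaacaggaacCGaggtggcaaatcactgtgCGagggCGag
CBLN2: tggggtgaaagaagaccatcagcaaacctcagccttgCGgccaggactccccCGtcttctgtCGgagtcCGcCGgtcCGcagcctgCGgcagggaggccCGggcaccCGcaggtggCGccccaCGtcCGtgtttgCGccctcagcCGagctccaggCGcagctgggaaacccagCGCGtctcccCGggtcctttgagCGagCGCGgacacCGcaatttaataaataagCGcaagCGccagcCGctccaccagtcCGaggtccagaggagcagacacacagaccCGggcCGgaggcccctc
PMAIP1: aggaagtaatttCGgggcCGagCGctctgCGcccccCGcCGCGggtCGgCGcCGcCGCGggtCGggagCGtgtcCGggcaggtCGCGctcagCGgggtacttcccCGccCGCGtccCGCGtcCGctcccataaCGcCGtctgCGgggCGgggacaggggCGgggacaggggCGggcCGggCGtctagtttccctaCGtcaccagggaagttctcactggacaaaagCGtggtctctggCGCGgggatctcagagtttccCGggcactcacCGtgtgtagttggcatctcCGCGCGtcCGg
DSC3: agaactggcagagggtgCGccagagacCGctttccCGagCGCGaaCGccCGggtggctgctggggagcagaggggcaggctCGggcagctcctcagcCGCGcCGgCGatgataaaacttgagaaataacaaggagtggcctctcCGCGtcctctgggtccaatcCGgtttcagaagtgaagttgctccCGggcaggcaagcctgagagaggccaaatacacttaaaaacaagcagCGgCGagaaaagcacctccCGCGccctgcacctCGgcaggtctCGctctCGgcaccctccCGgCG
TUBB6: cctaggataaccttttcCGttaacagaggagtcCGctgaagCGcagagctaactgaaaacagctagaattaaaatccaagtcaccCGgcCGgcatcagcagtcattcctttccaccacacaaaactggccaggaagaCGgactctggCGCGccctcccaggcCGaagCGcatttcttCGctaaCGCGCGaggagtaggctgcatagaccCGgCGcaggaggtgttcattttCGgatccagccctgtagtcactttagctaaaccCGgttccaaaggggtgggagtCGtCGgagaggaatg

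The 5 windows differed widely in CG content. The PMAIP1 window held 42 CG dinucleotides, that of CBLN2 28, that of DSC3 25, that of TUBB6 20 and that of SYT4 11. RefSeq windows were matched for 223 of the 269 members, and their median was 26 CG dinucleotides, against 21 over the 22197 protein-coding windows of the table and 14 over all 35114 windows. Among the matched members, the median was 29.5 in the 154 that were tested and 13 in the 69 that were not. The letters TATAAA, searched on both strands, were present in 7.17% of the members' windows, in 9.47% of protein-coding windows and in 11.5% of all windows. The letters GGGCGG, also searched on both strands, were present in 61.9%, 56.3% and 44.95%. None of the 5 windows held TATAAA and only that of PMAIP1 held GGGCGG.

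Libraries held between 15707134 and 18052517 counts. RC4-2B replicate 2 stood apart from the other libraries. The SD over genes of its log2 difference from RC4-2B replicates 1 and 3 was 0.63 and 0.56, against 0.25 between those replicates, and the difference from replicate 1 followed the GC content of the genes (Spearman's rank correlation = -0.75 across genes, which are not independent replicates). Results are therefore given with scaling by the trimmed mean of M values (TMM) and again after the GC trend of each library was removed, and the main counts also without that library. No library was a copy of another, since even the closest pair differed by 3.402 times the sampling noise (chi-square per gene). The 6 prostate luminal markers checked were detected in both lines, with a summed level of 2851 to 2888 CPM (counts scaled to library size) in C4-2B and 1733 to 2162 in RC4-2B. They did not move together: KLK3 stood at 916.1 to 1026 CPM in C4-2B and 31.5 to 59.1 in RC4-2B, and STEAP2 at 508.1 to 591.2 and 543.4 to 906.0. Of 4 leukocyte markers, 3 stayed at or under 3 counts in every library, and 2 of 4 fibroblast markers did.

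Of the 269 members, 182 had enough counts to be tested, 47 on the short and 135 on the long arm. The other 87 were not tested: in 69 no library exceeded 3 counts, 51 of them at 0, and 18 exceeded 3 counts in some library. Among the genes barely detected were most SERPINB genes and the classical cadherins CDH2, CDH7, CDH19 and CDH20. Medians were taken over the 158 members whose average log2 CPM was 2 or more, of which 42 lay on the short and 116 on the long arm.

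Chromosome 18 genes stood lower in RC4-2B than in C4-2B as a body. Their median log2 CPM difference was -0.19 on the TMM scale and -0.32 after GC correction, against 0.014 and -0.0028 over 10380 genes of the same level on the other chromosomes. The difference was below 0 for 123 of the 158 genes (77.8%, against 49.3% of all genes of that level), and after GC correction for 135 (85.4%, against 51.2%). No p-value was given to these medians, because genes of one chromosome share the same 6 libraries. In bulk RNA, fewer cells that express a gene and less RNA per cell cannot be told apart.

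The size of the difference varied between the RC4-2B libraries. Relative to the C4-2B mean, the TMM-scaled medians of RC4-2B replicates 1, 2 and 3 were -0.33, -0.019 and -0.23, and those of the C4-2B replicates lay between -0.043 and 0.027. On this scale replicate 2 of RC4-2B overlapped the parental range and the other RC4-2B replicates lay under it. After GC correction the 3 RC4-2B libraries stood at -0.35, -0.27 and -0.32, with C4-2B between -0.0083 and 0.016, so that the groups no longer overlapped. Without that replicate, the TMM median was -0.28. The median GC content of these members was 42.5%, against 47.7% for genes of the same level elsewhere.

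**Figure D1:**
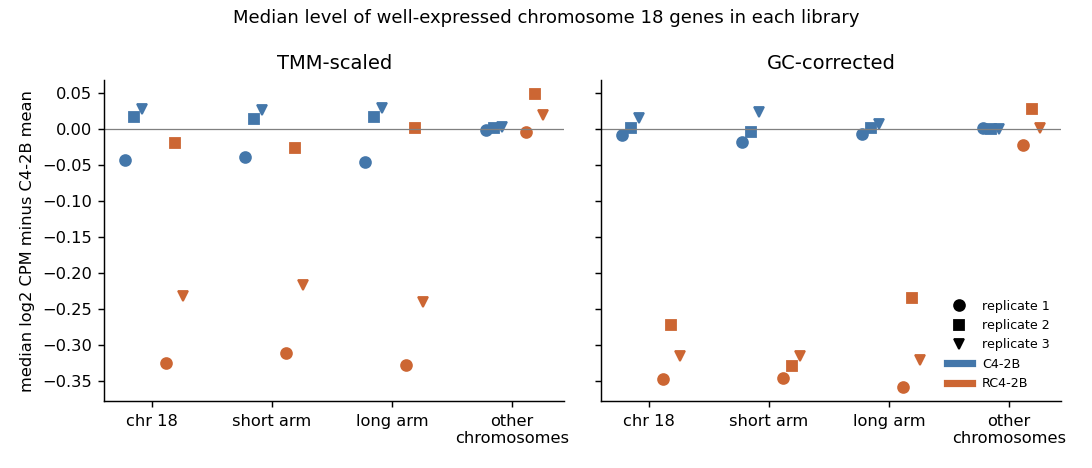
Median log2 CPM of the well-expressed genes of chromosome 18, of each arm and of the other chromosomes in each library, as the difference from the C4-2B mean, with TMM scaling on the left and after GC correction on the right. Each symbol is 1 library; RC4-2B replicate 2 sits at -0.019 for chromosome 18 on the left and at -0.27 on the right.

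The same held for the share of reads. Members took up 1.14%, 1.18% and 1.21% of protein-coding counts in C4-2B replicates 1, 2 and 3, and 0.910%, 1.05% and 0.929% in those of RC4-2B. Every RC4-2B library lay below every C4-2B library. With SYT4 left out, the shares were 1.11%, 1.15% and 1.18% against 0.910%, 1.05% and 0.929%, so this one abundant gene accounted for little of the gap.

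Set beside the other chromosomes, the place of chromosome 18 depended on the GC correction. On the TMM scale chromosome 19 stood lower still, at -0.29, and the other chromosomes except 17 and Y reached from there up to 0.11. Chromosomes 22 and 16 stood close to chromosome 18 on that scale, at -0.181 and -0.175, and at -0.016 and -0.045 after GC correction. The medians of chromosome 19 in RC4-2B replicates 1, 2 and 3 were -0.088, -0.58 and -0.13, against -0.020 to 0.031 in C4-2B, and after GC correction they were -0.068, 0.0049 and -0.041. After GC correction the same 21 chromosomes lay between -0.061 and 0.066, and the median of chromosome 18, -0.32, was the lowest of all chromosomes. The GC trend was fitted on genes outside chromosome 18, which by itself places those genes near 0 as a body. Chromosome 17 stood at 0.15 on the TMM scale and at 0.25 after GC correction.

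**Figure D2:**
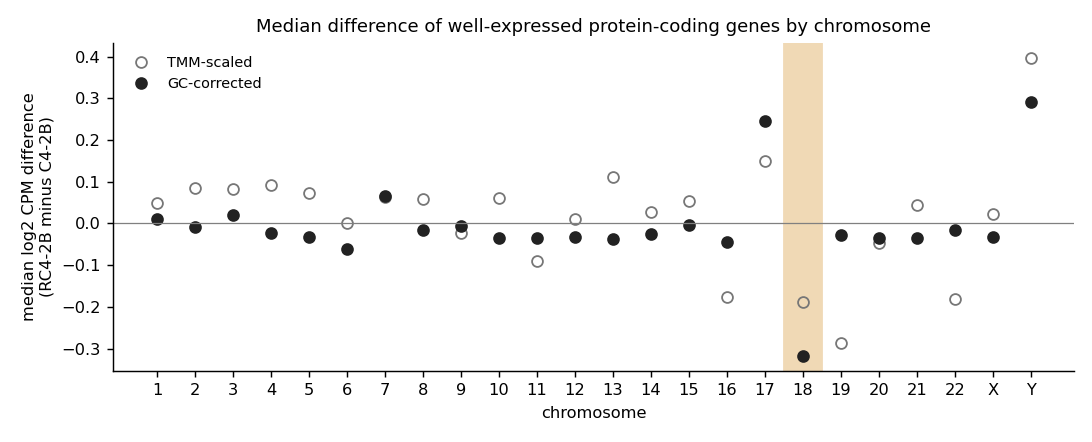
Median log2 CPM difference, RC4-2B minus C4-2B, of well-expressed protein-coding genes by chromosome, with open circles for TMM scaling and filled circles after GC correction. The shaded column is chromosome 18, at -0.19 and -0.32; chromosome 19 is lower than it on the TMM scale only.

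The arms had similar medians on both scales. The median difference was -0.18 for the short arm and -0.19 for the long arm, and after GC correction -0.33 and -0.32. Among well-expressed genes, 34 of 42 on the short arm and 89 of 116 on the long arm were below 0. In RC4-2B replicates 1, 2 and 3, the short arm stood at -0.31, -0.027 and -0.22 and the long arm at -0.33, 0.00069 and -0.24. After GC correction the short arm stood at -0.35, -0.33 and -0.32 and the long arm at -0.36, -0.24 and -0.32. The arms were thus furthest apart in replicate 2 after GC correction, and the difference between them was not tested.

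Along the chromosome the difference was negative nearly throughout. In 10 Mb steps of gene start, the medians from 0 to 40 Mb were -0.18, -0.19, -0.19 and -0.13. The step from 40 to 50 Mb, with SYT4 and ATP5F1A among its 16 genes, had the lowest median, -0.45. The steps from there to 80 Mb had -0.17, -0.13 and -0.26, and the 3 genes beyond 80 Mb had -0.30. After GC correction the step from 40 to 50 Mb remained the lowest, at -0.53, and 15 of its 16 genes were below 0 on both scales. The steps with under 20 genes are thin, and no step was tested against another.

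Running medians of 15 neighbouring genes gave a finer picture. Of 144 such windows, 142 were below 0, from -0.45 in the window from PIK3C3 to RPL17 up to 0.039 in that from IMPACT to MAPRE2. After GC correction all 144 were below 0, between -0.55 and -0.15. With 25 genes a window, all 134 windows were below 0 on the TMM scale, between -0.42 and -0.11.

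**Figure D3:**
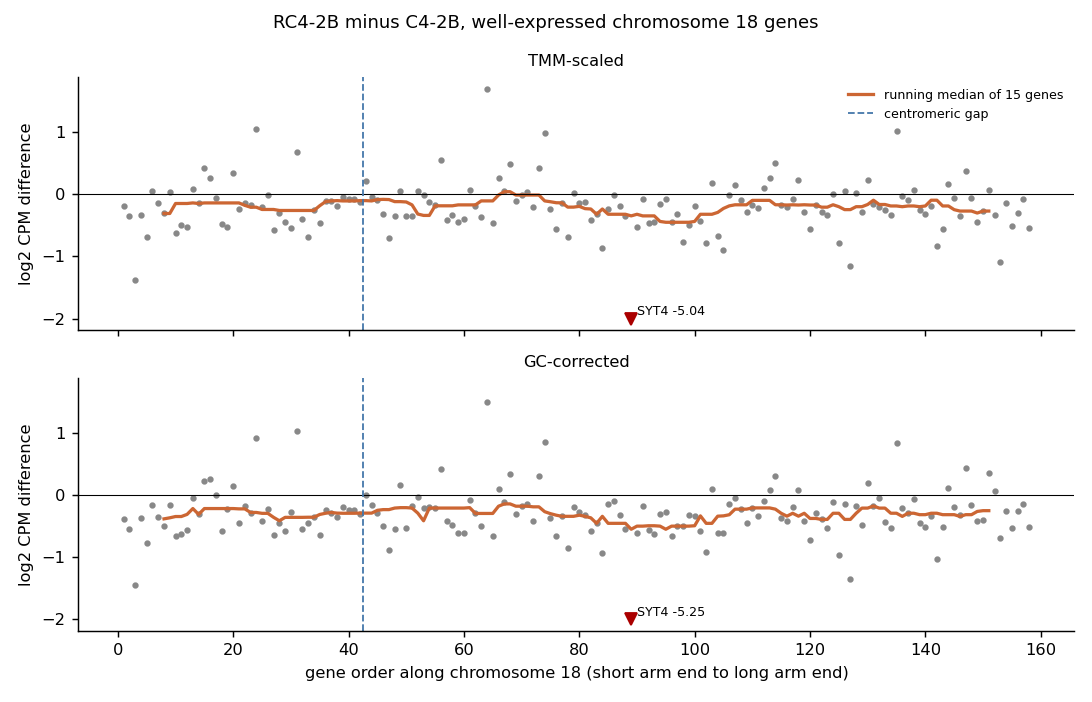
Log2 CPM difference, RC4-2B minus C4-2B, of the 158 well-expressed chromosome 18 genes in gene order, with TMM scaling above and after GC correction below; points are genes, the line is the running median of 15 genes and the dashed line is the gap between the arms. SYT4 lies beyond the axis and is drawn at its lower edge; the running median after GC correction lies between -0.55 and -0.15.

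The shift was seen at every level of expression. After GC correction, the 53 members with the highest expression had a median of -0.40, with 52 below 0, the 52 in the middle -0.30 and the 53 lowest -0.24. The 53 shortest gene models stood at -0.31 on the TMM scale and at -0.45 after GC correction, and the 53 longest at -0.17 and -0.22. Non-coding rows of the chromosome were also examined: 48 were tested, with a median difference of -0.082, or -0.22 after GC correction. These subgroups are described and were not tested against each other.

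By the edgeR quasi-likelihood test, 16 of the 182 tested members fell and 2 rose at an adjusted p-value under 0.05 (Benjamini-Hochberg over all 15054 genes tested). Over all those genes, 0.903% fell and 1.08% rose. Before adjustment, 62 members were lower and 9 higher at p under 0.05, against 9.42% and 12% of all genes. The count depended strongly on the libraries and on the GC trend. With the GC trend entered as an offset, 59 members fell and 6 rose (3.31% and 4.24% of all genes), 16 of the lower ones on the short and 43 on the long arm. Without RC4-2B replicate 2, 66 fell and 6 rose, but calls over all genes also rose, to 6.02% lower and 6.5% higher. With any 1 of the C4-2B libraries left out, only SYT4 and CBLN2 fell and none rose (edgeR), with 8, 6 and 8 members higher at an unadjusted p under 0.05 when replicate 1, 2 or 3 was left out. Over all genes, 0.2% to 0.247% then fell and 0.0838% to 0.13% rose. Without RC4-2B replicate 3, SYT4 and CBLN2 fell and DSC3 rose (0.316% and 0.187% of all genes). P-values measure the spread between the labelled biological replicates.

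The libraries of the lines often did not overlap in TMM-scaled CPM. All 3 RC4-2B libraries were below all 3 C4-2B libraries in 69 (37.9%, against 17.1% of all genes), and above them in 7 (3.85%, against 17%). After GC correction the lines did not overlap with RC4-2B lower in 106 members (16.8% of all genes) and with RC4-2B higher in 8 (16.1%).

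To find genes that departed from the rest of the chromosome, the median difference of chromosome 18 was entered as an offset, so that each gene was tested against that median and not against 0. By edgeR, 8 members lay below the chromosome-wide difference, namely SYT4, CBLN2, RNF152, PSTPIP2, COLEC12, PMAIP1, CXXC1 and MOCOS, and 5 lay above it, namely DSC3, SERPINB5, MAPRE2, TUBB6 and ANKRD29. In that fit, which tested genes of the other chromosomes against 0, 0.844% of all genes were called lower and 1.1% higher. The same 13 genes were called with the median of each arm as the offset. CBLN2 and RNF152 among them passed the filter on counts through C4-2B alone. With the GC trend in the fit, 11 lay below and 10 above (2.9% and 4.09% of all genes), of which 12 were among those 13, CXXC1 being the exception. With any 1 of the C4-2B libraries left out, only SYT4 and CBLN2 lay below and none above, without RC4-2B replicate 3 DSC3 lay above as well, and without RC4-2B replicate 2 there were 19 below and 13 above (5.64% and 6.39% of all genes).

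**Figure D4:**
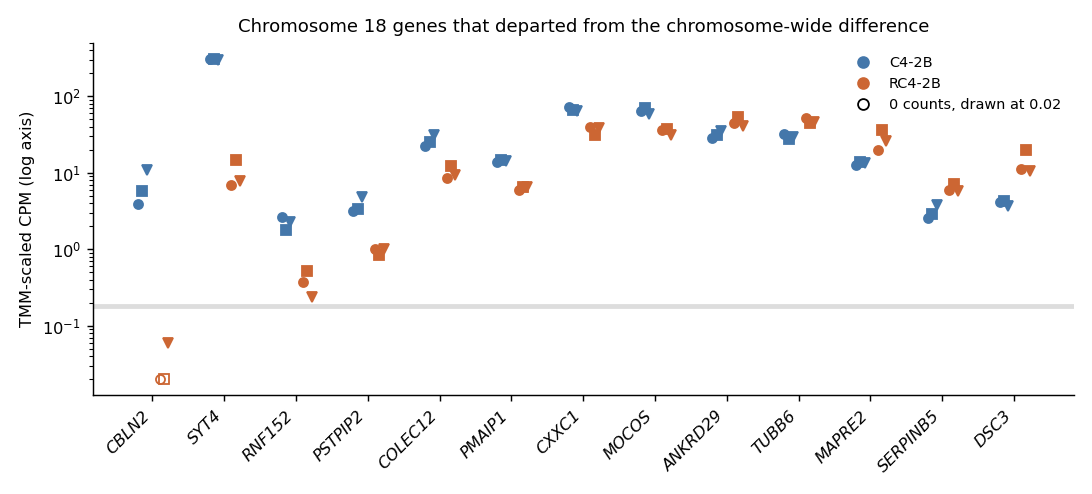
TMM-scaled CPM, on a log axis, of the 13 genes that departed from the chromosome-wide difference, in each library, with C4-2B in blue and RC4-2B in orange and a different symbol for each replicate. The grey band is the level of 3 counts, and the CBLN2 libraries at 0 counts are open symbols at the lower edge; in all 13 genes the lines do not overlap.

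SYT4, a synaptotagmin of secretory vesicles in neurons and neuroendocrine cells (ENSG00000132872, chr18:43267878-43277650, minus strand), fell most among the well-expressed members. It stood at 310.4, 311.6 and 300.7 CPM in C4-2B replicates 1, 2 and 3 and at 6.94, 14.5 and 7.75 CPM in those of RC4-2B. The spread within each line was thus small beside the distance between them. The log2 fold change was -4.98 (SE 0.28, edgeR adjusted p = 0.000154), and -4.79 relative to the chromosome median (adjusted p = 0.000199). Per length, SYT4 was in the range of the abundant members in C4-2B, at 62.1 ± 0.836 FPKM (SD, n = 3), against 65.2 ± 1.29 for FECH.

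CBLN2, a secreted cerebellin that organises synapses (ENSG00000141668, chr18:72536680-72638521, minus strand), was nearly lost from RC4-2B. It had 65, 101 and 194 counts in C4-2B replicates 1, 2 and 3 and 0, 0 and 1 count in those of RC4-2B. Since RC4-2B did not exceed 3 counts in any library, the C4-2B mean was set against the level of 3 counts. By that measure CBLN2 was 38.6-fold lower in RC4-2B (edgeR adjusted p = 0.00283). The fold rests on the C4-2B mean and would be smaller for replicate 1 alone. CBLN2 passed the filter on counts through C4-2B alone. Its level in C4-2B was low, at 6.88 ± 3.72 CPM (SD, n = 3), and varied between replicates. SYT4 and CBLN2 were past the threshold in every setting that tested them, 18 and 16 settings. The settings reuse the same libraries, so the repeats are not independent support for either gene.

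Of the 13 neuronal and synaptic genes listed, only 5 were expressed enough to be tested. SYT4 and CBLN2 were the 2 of these that fell, against 8.79% of all tested members and 0.903% of all genes. In the other 3 the RC4-2B libraries also lay below those of C4-2B, as in 37.9% of all tested members and 17.1% of all genes. NETO1, an auxiliary subunit of glutamate receptors, stood at 105.0, 116.4 and 126.0 CPM in C4-2B and at 94.6, 92.1 and 92.2 CPM in RC4-2B (log2 fold change -0.32, edgeR adjusted p = 0.167, and 0.028 after GC correction). MBP, the myelin basic protein gene, had a log2 fold change of -0.44, and GNAL, a G protein alpha subunit that overlaps CHMP1B and MPPE1, of -0.50. The median difference of the 5 genes was -0.57.

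Cell death and survival genes included PMAIP1, which encodes the pro-apoptotic protein NOXA (ENSG00000141682, chr18:59899948-59904306, plus strand). It stood at 13.7, 14.7 and 14.5 CPM in C4-2B and at 6.003, 6.61 and 6.46 CPM in RC4-2B. The replicates of each line were close together and the lines far apart. PMAIP1 fell by 1.17 on the log2 scale (SE 0.15, edgeR adjusted p = 0.00887), and by 0.98 relative to the chromosome median (adjusted p = 0.0184). BCL2, the founding anti-apoptotic gene of its family, had a log2 fold change of -0.75 that did not pass (edgeR adjusted p = 0.174), with 4.77, 5.32 and 3.47 CPM in C4-2B and 3.00, 1.94 and 3.11 CPM in RC4-2B. MALT1, a protease of NF-kappaB signalling, did not pass either (-0.32, edgeR adjusted p = 0.293), but fell after GC correction (-0.53, adjusted p = 0.0162). TNFRSF11A and PHLPP1 overlapped between the lines. Of 7 listed genes 5 were tested, with a median difference of -0.34. Of these 1 fell, against 8.79% of all tested members and 0.903% of all genes. After GC correction 2 fell, against 32.4% of all tested members and 3.31% of all genes.

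Of 11 listed cadherins and desmosomal genes 5 were tested and 1 rose, against 1.1% of all tested members and 1.08% of all genes. The median difference of the 5 was 0.26 on the TMM scale and 0.073 after GC correction. DSC3, a desmocollin of basal and squamous epithelia (ENSG00000134762, chr18:30990008-31042815, minus strand), rose. It stood at 4.12, 4.30 and 3.70 CPM in C4-2B and at 11.3, 20.0 and 10.5 CPM in RC4-2B. All RC4-2B libraries lay above all C4-2B libraries, and replicate 2 was the highest. The log2 fold change was 1.78 (SE 0.27, edgeR adjusted p = 0.019), and 1.97 relative to the chromosome median (adjusted p = 0.0134).

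The neighbours of DSC3 behaved differently. DSG2, the desmoglein of simple epithelia and one of the 5 most abundant members, stood at 662.3, 751.2 and 823.7 CPM in C4-2B and at 706.8, 948.7 and 682.2 CPM in RC4-2B. The lines overlapped, and its log2 fold change of 0.06 (SE 0.15, edgeR adjusted p = 0.812) turned to -0.11 after GC correction and to -0.10 without RC4-2B replicate 2. DSC2, the desmocollin of most epithelia, had -0.45 (edgeR adjusted p = 0.183), and -0.66 after GC correction (adjusted p = 0.0031). DSC1 and DSG1 had 0.30 and 0.29 and overlapped between the lines. Per length, DSG2 remained far above DSC3, at 115 ± 24.6 against 1.81 ± 0.728 FPKM in RC4-2B (SD, n = 3).

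SERPINB5, which encodes maspin, was 1 of only 2 tested genes among 10 listed members of the SERPINB cluster. It stood at 2.57, 2.89 and 3.76 CPM in C4-2B and at 5.94, 7.07 and 5.87 CPM in RC4-2B, with no overlap. Against 0 it did not pass (log2 fold change 1.03, SE 0.22, edgeR adjusted p = 0.0539, and 0.0283 after GC correction), and against the chromosome median it did (1.22, adjusted p = 0.0308). SERPINB8, the other tested gene, had a log2 fold change of -0.91 and overlapped. None of the 2 passed by edgeR, with 1 higher at an unadjusted p under 0.05, 1 higher by DESeq2 and none by limma.

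TUBB6, a beta-tubulin (ENSG00000176014, chr18:12307669-12344320, plus strand), rose from 32.7, 27.3 and 29.4 CPM to 52.2, 45.5 and 45.9 CPM. Its log2 fold change was 0.68 (SE 0.13, edgeR adjusted p = 0.0343), 1.04 after GC correction, and 0.87 relative to the chromosome median (adjusted p = 0.0162). TUBB6 overlaps AFG3L2 on the opposite strand over 15377 bases, and the sources do not say whether counting used strand. AFG3L2, a mitochondrial protease subunit, stood at 166.9, 162.6 and 168.4 CPM in C4-2B and 126.0, 129.9 and 121.3 CPM in RC4-2B, and thus differed in the other direction (-0.40, adjusted p = 0.0747, and 0.00685 after GC correction).

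MAPRE2, a protein of microtubule plus ends, stood at 12.6, 13.9 and 13.7 CPM in C4-2B and at 19.7, 36.6 and 25.9 CPM in RC4-2B. The lines did not overlap, but the RC4-2B libraries were spread widely. It did not pass against 0 (1.03, edgeR adjusted p = 0.0571, and 0.0103 after GC correction) and passed against the chromosome median (1.22, adjusted p = 0.0332). MYL12B, a regulatory light chain of non-muscle myosin, fell from 209 ± 8.24 to 144 ± 5.84 CPM (SD, n = 3), with a log2 fold change of -0.54 (adjusted p = 0.0331).

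The remaining member above the chromosome median was ANKRD29, an ankyrin repeat gene. ANKRD29 stood at 28.7, 31.5 and 35.8 CPM in C4-2B and at 45.6, 54.4 and 41.4 CPM in RC4-2B. It did not pass against 0 (0.56, edgeR adjusted p = 0.0945; 0.0428 after GC correction) and passed against the chromosome median (0.75, adjusted p = 0.0455). The small GTPases RAB31 and RAB27B of vesicle traffic departed from the chromosome median only with the GC trend in the fit (edgeR adjusted p = 0.0116 and 0.0444) or without RC4-2B replicate 2. RAB31 had a log2 fold change of 1.08 with a wide error (SE 0.29, adjusted p = 0.1, and 0.0361 after GC correction), from 5.79, 6.68 and 10.0 CPM to 13.4, 22.2 and 11.9 CPM, and RAB27B one of 0.52 (adjusted p = 0.182). With DSC3, TUBB6, MAPRE2, SERPINB5 and ANKRD29, these were the 7 members in which all RC4-2B libraries lay above all C4-2B libraries on the TMM scale. With the GC trend in the fit, ARHGAP28, NFATC1 and TTR also lay above the chromosome median (adjusted p = 0.0367, 0.034 and 0.0379).

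The 17 tested of 18 listed genes of mitochondria and metabolism had a median difference of -0.42. Of the 17, 14 were below 0, against 76.4% of all tested members and 50.6% of all tested genes. By edgeR 4 fell, against 8.79% of all tested members and 0.903% of all genes. The 4 were ATP5F1A, NARS, CYB5A and ENOSF1. ATP5F1A, the alpha subunit of mitochondrial ATP synthase and the most abundant member by CPM, stood at 1227, 1134 and 1168 CPM in C4-2B and at 887.7, 873.1 and 810.5 CPM in RC4-2B. The decrease was small beside that of SYT4 but larger than the spread of either line (-0.46, SE 0.09, edgeR adjusted p = 0.0491). It was not distinguished from the chromosome median (-0.27, adjusted p = 0.166).

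NARS, the cytosolic asparaginyl-tRNA synthetase, fell from 330.9, 338.2 and 333.1 CPM to 221.3, 242.7 and 213.3 CPM (-0.57, SE 0.10, edgeR adjusted p = 0.0281). CYB5A, the electron carrier cytochrome b5, fell from 195.4, 180.8 and 182.3 CPM to 121.0, 84.3 and 110.7 CPM (-0.82, SE 0.14, adjusted p = 0.029). ENOSF1, which shares 3255 bases with TYMS on the opposite strand, fell from 42.5 ± 1.13 to 26.3 ± 2.16 CPM (SD, n = 3; -0.69, adjusted p = 0.0281). In none of these did the lines overlap. FECH, which inserts iron into haem, averaged 326 ± 4.82 CPM in the parent and 266 ± 10.2 CPM in the subclone, also without overlap, but did not pass (-0.29, adjusted p = 0.139, and 0.0313 after GC correction). ME2, ACAA2 and PIGN had values of 0.16, 0.38 and 0.02 and overlapped. After GC correction 11 of the 17 fell, against 32.4% of all tested members and 3.31% of all genes.

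Other enzymes outside that list fell as well. CNDP2, a cytosolic dipeptidase, stood at 572.0, 577.2 and 559.5 CPM in C4-2B and at 367.1, 422.4 and 365.5 CPM in RC4-2B (-0.56, edgeR adjusted p = 0.0291). It lies beside CYB5A among the tested genes. MOCOS, the molybdenum cofactor sulfurase, fell from 64.3 ± 5.56 to 35.1 ± 3.15 CPM (SD, n = 3; -0.87, adjusted p = 0.0154), also relative to the chromosome median (adjusted p = 0.0348). SEC11C, a subunit of the signal peptidase, fell from 90.7 ± 3.47 to 53.0 ± 6.51 CPM (-0.78, adjusted p = 0.0214).

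In the list of transcription factors and chromatin genes, 24 of 29 were tested. Against 8.79% of all tested members and 0.903% of all genes, 2 of these fell, MBD1 and CXXC1. Both encode proteins with CXXC zinc fingers that bind CG-rich DNA, and they lie in tandem, 568 bases apart, on the minus strand. MBD1 stood at 67.7, 68.0 and 63.6 CPM in C4-2B and at 44.4, 37.9 and 42.9 CPM in RC4-2B (-0.67, SE 0.11, edgeR adjusted p = 0.0276). CXXC1 stood at 72.6, 66.1 and 64.0 CPM and at 39.6, 31.5 and 38.2 CPM (-0.89, SE 0.13, adjusted p = 0.016). The fall of CXXC1 was smaller after GC correction (-0.61), and it then no longer departed from the chromosome median. MBD2, a related methyl-CG binding gene, did not pass (-0.17), and GATA6, ZNF532 and SS18 lay at 0.04, 0.00 and 0.08. The list's median was -0.16.

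The SMAD and TGF-beta list had 5 tested genes of 7, and none passed by edgeR. In 4 of the 5 all RC4-2B libraries were below all C4-2B libraries, as in 37.9% of all tested members and 17.1% of all genes. SMAD4, the common mediator of the pathway, whose row overlaps another annotated gene over 29751 bases, stood at 50.7, 53.8 and 56.1 CPM in C4-2B and at 38.1, 47.5 and 45.8 CPM in RC4-2B (-0.29, edgeR adjusted p = 0.233). SMAD2 had -0.32 and SMAD7, an inhibitor of the pathway, -0.48, while TGIF1, a corepressor, had 0.09 and overlapped. Before adjustment 3 of the 5 were lower at p under 0.05, against 34.1% of all tested members and 9.42% of all genes. DESeq2 and limma called 0. After GC correction 3 of the 5 fell, SMAD2, SMAD4 and TWSG1, against 32.4% of all tested members and 3.31% of all genes.

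Of 17 cell division and DNA maintenance genes, all were tested and none passed by edgeR, with a median difference of -0.19, that of the chromosome. Before adjustment 7 of the 17 were lower and 0 higher at p under 0.05, against 34.1% of all tested members and 9.42% of all genes lower. DESeq2 and limma called 0. NDC80, a kinetochore component, stood at 85.3, 82.4 and 70.7 CPM in C4-2B and at 59.8, 72.5 and 59.9 CPM in RC4-2B. After GC correction 5 of the 17 fell, against 32.4% of all tested members and 3.31% of all genes. The 5 were TYMS, NDC80, SEH1L, VPS4B and RBBP8.

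Among matrix, signalling and ubiquitin ligase genes, 11 of 12 were tested and 1 fell, RNF152, against 8.79% of all tested members and 0.903% of all genes. RNF152, a lysosomal ubiquitin ligase, had 44, 32 and 40 counts in C4-2B and 6, 9 and 4 counts in RC4-2B. Its log2 fold change of -2.55 (SE 0.37, edgeR adjusted p = 0.0154) thus rests on few reads. Like CBLN2, RNF152 passed the filter on counts through C4-2B alone. NEDD4L, another ubiquitin ligase, stood at 265.8, 292.2 and 289.6 CPM in C4-2B and at 221.7, 243.3 and 228.8 CPM in RC4-2B and did not pass (-0.29, adjusted p = 0.161, and 0.0196 after GC correction). The kinase YES1 and the laminin LAMA1 lay at 0.07 and 0.26 and LAMA3 at -0.43, each with overlap between the lines.

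The 2 other members below the chromosome belonged to no list. COLEC12, a scavenger receptor of the collectin family near the short-arm end (chr18:316740-500722), stood at 22.5, 25.2 and 31.2 CPM in C4-2B and at 8.44, 12.3 and 9.40 CPM in RC4-2B (-1.39, SE 0.19, edgeR adjusted p = 0.0142). PSTPIP2, an actin-associated adaptor of the F-BAR family, stood at 3.16, 3.397 and 4.90 CPM and at 1.00, 0.855 and 0.999 CPM (-1.999, SE 0.28, adjusted p = 0.0142). PSTPIP2 lies 7975 bases from ATP5F1A, which fell less. PQLC1, near the long-arm end, had a larger mean difference than most called genes but a wide spread in RC4-2B, at 45.2, 22.2 and 40.1 CPM against 79.2, 70.0 and 70.6 CPM, and did not pass (-1.03, adjusted p = 0.0657). After GC correction it fell (-0.69, adjusted p = 0.00186).

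**Figure D5:**
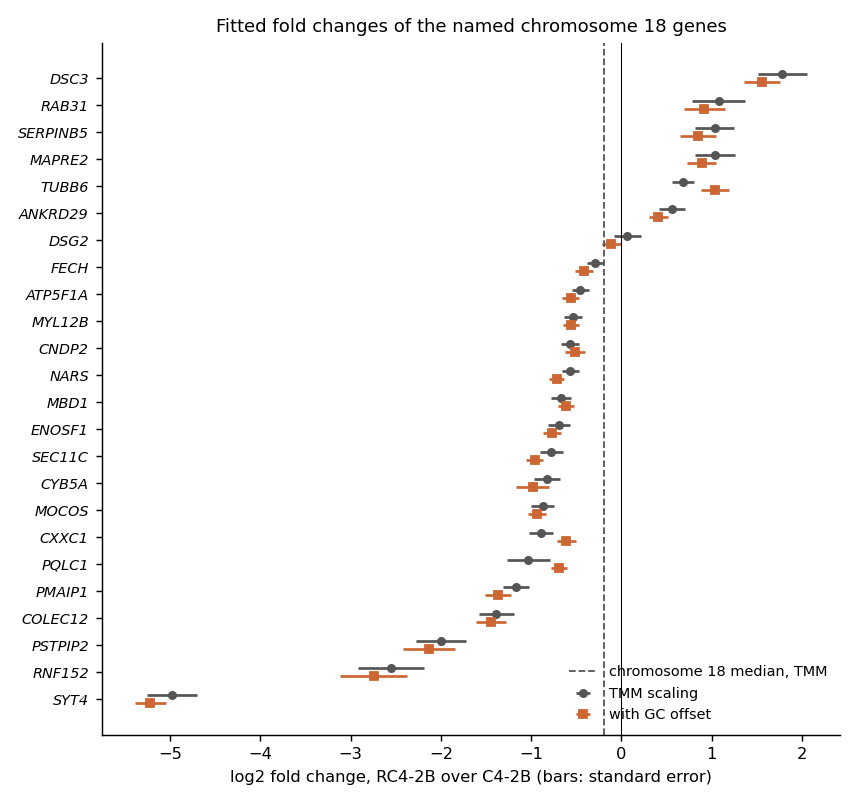
Log2 fold change, RC4-2B over C4-2B, of the named chromosome 18 genes with bars of 1 standard error, as circles for TMM scaling and squares with the GC offset. CBLN2 is left out because RC4-2B held at most 1 count; the dashed line is the chromosome median of -0.19, and SYT4 at -4.98 and DSC3 at 1.78 are the extremes.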

How the data were processed

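RNA of 3 replicates each of C4-2B and RC4-2B was sequenced. Reads were aligned by the authors with STAR to GRCh38, and they deposited whole-number read counts per gene and FPKM values, with 1 column per library. The counting program, whether it used strand, how it treated multi-mapped reads, and the annotation release are not given in the sources used here, so overlapping genes and genes with near-identical copies are uncertain. The deposited counts were fitted with edgeR 4.0.16 under R 4.3.3 (TMM, filterByExpr with a minimum of 10 counts, glmQLFit and glmQLFTest on cell line alone, Benjamini-Hochberg over all 15054 genes tested, threshold 0.05). The study's methods used DESeq2, which with limma 3.58.1 on the deposited FPKM values was an alternative (DESeq2 1.42.0). Differences of log2 CPM used a prior count of 2. GC content came from GENCODE transcripts. A lowess trend with a span of 0.2 was fitted per library on genes outside chromosome 18 and removed from all genes. The SE of a log2 fold change is its absolute value over the square root of F. A fold against libraries at or under 3 counts was computed against the mean CPM of 3 counts in that line, which covers counting error only. Gene models on chromosome 18 were split at 18 Mb.

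Genes named were those past the threshold, the 6 with the largest fall and rise among well-expressed genes, the 5 most abundant, those departing from the chromosome median, and members of 9 lists. Other genes were named for a window's ends, for overlap or because their groups did not overlap. The members and lists were chosen with earlier results of these data known. The fits were tested on simulated data. Figures were drawn with matplotlib 3.10.9. Libraries of 15707134 to 18052517 counts set the precision.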

Additional observations from a re-analysis of the deposited data

How the results depend on the processing

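The median difference of chromosome 18 stayed below 0 in each setting run. With each library left out in turn it ranged from -0.28 to -0.13, that of the short arm from -0.27 to -0.12 and that of the long arm from -0.30 to -0.13. With the GC offset, alone or with the replicate block, the chromosome median moved to -0.32, the short-arm median to -0.33 and the long-arm median to -0.32. The counts of called members moved more. Members lower and higher in RC4-2B numbered 16 and 2 of 182 tested as reported (0.903% and 1.08% of all genes). With the GC offset they were 59 and 6 (3.31% and 4.24% of all genes). With the GC offset and without RC4-2B replicate 2, an alternative chosen after seeing the data, they were 86 and 7 (6.76% and 6.61% of all genes). DESeq2 called 28 and 6 of 182 (2.64% and 3.28% of all genes). With no filter on low counts 25 and 6 of 218 were called (2.22% and 2.07% of all genes). By limma on log2(FPKM + 1) 6 and 0 of 144 passed (0.484% and 0.384% of all genes). On log2(FPKM + 0.1) 4 and 0 of 144 did (0.392% and 0.325% of all genes). Both limma fits had 7 higher at an unadjusted p under 0.05. Leaving out each library gave 2 to 66 lower and 0 to 6 higher, against 0.2% to 6.02% and 0.0838% to 6.5% of all genes. It gave 2 to 19 below and 0 to 13 above the chromosome-wide difference. The lowest counts came with any 1 C4-2B library or RC4-2B replicate 3 left out. The highest came without RC4-2B replicate 2, where the fit with the chromosome median called 5.64% and 6.39% of all genes. With the GC offset 10 genes lay above that difference. The 16 and 2 genes called as reported were all called again with the GC offset, by DESeq2, with no filter and without RC4-2B replicate 2. Deviations of same-numbered libraries correlated at 0.31, 0.18 and -0.073, and those of differently numbered libraries at -0.29 to 0.17. With so few libraries these values do not settle whether the replicate numbers paired the samples. With the replicate block 8 members were lower and 1 higher (0.492% and 0.365% of all genes). With the block and the GC offset 55 and 5 were (3.87% and 4.19% of all genes). DSG2, with 0.06 as reported, reversed to -0.11 with the GC offset, -0.11 with the replicate block and GC offset, -0.016 without C4-2B replicate 1, -0.10 without RC4-2B replicate 2 (-0.10 to 0.15 over the left-out libraries) and -0.17 with the GC offset and without RC4-2B replicate 2. Causes of these changes were not tested. Members at or under 3 counts could not be compared at this depth.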
